A study of Mus musculus with 12 samples.

Results

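CD8 T cells sorted from the mouse brain 30 days after stroke were compared, gene by gene, with CD8 T cells sorted from the brain 3 days after stroke. The comparison took 6 of the study's 12 libraries, 3 at day 30 and 3 at day 3. It covered the 20345 of 23937 genes in the table that reached at least 1 CPM (counts per-million on a library size that the authors scaled) in at least 3 of these 6 libraries. The other 6 libraries hold CD8 T cells of naive mice, 3 from brain and 3 from blood; they entered the fit to share its estimate of the spread, and the naive brain levels are set beside the stroke levels where they help. All groups are mouse CD8 T cells isolated by fluorescence-activated sorting, and the labels name no strain, sex, age, allele, drug or way of inducing the stroke. A protocol note mentions dissociated spleens, whereas each stroke sample is labelled as brain, and the sample labels were followed here. Because no label ties the 3 samples at one time to 3 different mice, every p-value reflects only how far these samples spread, and that spread may be technical.

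CD8 T cells carry an antigen receptor coupled to the CD3 chains and read peptides held by MHC class I molecules on other cells. They kill through granule proteins and through Fas ligand, and many of them carry lectin-like receptors that are also found on natural killer cells. In the injured brain the first days are dominated by innate cells such as monocytes, macrophages and reactive microglia, which release chemokines, clear debris and present antigen on MHC class II. T cells that stay in a tissue after an injury or infection can persist there as resident memory cells, which are known for the chemokine receptor CXCR6 and for receptors that hold them in place.

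The label of the sorted cells was checked against its defining genes. Cd8a, one of the chains of the CD8 coreceptor, was at 2809, 518 and 766 CPM at day 30 and 510.4, 52.8 and 197 CPM at day 3. Its day 30 libraries all lay above the day 3 libraries, yet the difference did not pass the threshold (log2 difference 2.56 ± 0.71, adjusted p = 0.122; 0.00177 with the replicate number as a block). The block treats same-numbered day 30 and day 3 libraries as pairs, which no label states, so its values here and below are those of an alternative fit. Cd8b1, the other chain, was at 3843, 689 and 420.4 CPM at day 30 and 825, 81.4 and 326 CPM at day 3. Cd3e, a CD3 chain, was at 2370.2, 219 and 395 CPM at day 30 and 429, 44.1 and 27.8 CPM at day 3. Both overlapped and did not pass (adjusted p = 0.52 and 0.161; 0.0314 and 0.014 with the block). Ptprc, which encodes the leukocyte surface protein CD45, was at 2099, 2004 and 1566 CPM at day 30 and 1071, 232 and 920.0 CPM at day 3. The CD8, CD3 and CD45 genes were therefore present in all 6 libraries, with their lowest level at day 3 in replicate 2 or 3. Cd4, the coreceptor of helper T cells, was at 0.906, 3.21 and 4.52 CPM at day 30 and 15.5, 26.8 and 8.57 CPM at day 3.

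The libraries were unequal. They held 1723245 to 6844661 reads at day 30 and 1157538 to 5094462 reads at day 3, and replicate 1 was the deepest at both times. A count of 0 allows up to 3 reads, which is 0.680 to 1.61 CPM in these 6 libraries. The 1490 genes of olfactory, vomeronasal and taste receptors, which serve smell and taste, took 524 and 254 unscaled CPM in replicate 1 of day 30 and day 3 and 2016 to 7884 in the other 4 libraries. Reads on the 19 tested genes of the T cell receptor complex and its proximal signalling made up 0.635 to 1.57% of a day 30 library and 0.111 to 0.327% of a day 3 library. The part of these library differences in the gene differences below was not tested as a cause. In sorted bulk samples, fewer cells of a type and less of its RNA per cell cannot be told apart.

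At day 30 the CD8 preparations carried more RNA of single T cell genes such as Cd3g, Lck, Nkg7 and Sh2d1a than at day 3. These preparations also carried more RNA of the chemokine receptor Cxcr6 and of 4 Ly49 names, which may stand for fewer genes. They carried less RNA of haemoglobin genes, of the chemokines Cxcl1, Cxcl2 and Ccl7, of the MHC class II genes H2-Ab1, H2-Aa, H2-Eb1 and H2-DMb1 and of the matrix genes Thbs1 and Spp1. Most members of the gene lists these belong to did not pass. In limma, 22 genes rose (0.108% of those tested) and 28 genes fell (0.138%), or 50 in all (0.246%), at an adjusted p under 0.05. The log2 differences of these 50 genes had sizes from 3.25 to 7.70. The 3 libraries of one time lay wholly above those of the other for 47 of the 50. Over all tested genes, 890 (4.37%) had all day 30 libraries above all day 3 libraries and 1042 (5.12%) had them all below. At an unadjusted limma p under 0.05, 566 of the 20345 tested genes were higher and 609 lower. Across the tested genes the median log2 difference was -0.09, against -0.41 in unscaled CPM, -0.26 by DESeq2 and 0.10 after median centring. The difference was positive for 9311 of the tested genes and negative for 11034. After median centring 3 genes rose and 10 fell. With the replicate number as a block in the fit, 88 genes rose (0.433%) and 54 fell (0.265%), and 47 of the 50 were among them.

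**Figure D1:**
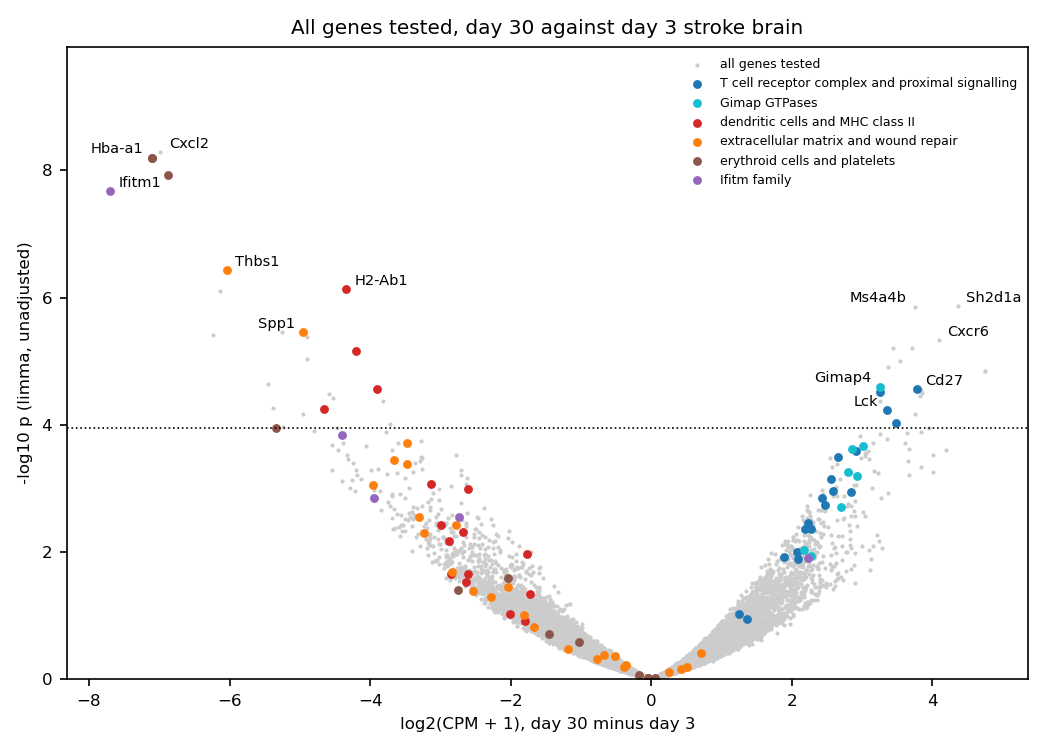
Log2 difference in log2(CPM + 1), day 30 minus day 3 (x axis), against minus log10 of the unadjusted limma p (y axis) for the 20345 tested genes, with 6 gene lists in colour; the dotted line marks the largest p that passed. The genes that fell reach further from 0 (Ifitm1 at -7.70) than those that rose (Klra6 at 4.75).

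Of the 22 genes that rose, 4 belong to the list of the T cell receptor complex and its proximal signalling. Cd3g, the gamma chain of CD3, was at 2883, 1056 and 844 CPM at day 30 and 494, 44.1 and 132 CPM at day 3, with every day 30 library above every day 3 library (log2 difference 3.25 ± 0.71, adjusted p = 0.0196). Lck, the kinase that phosphorylates the CD3 chains, was at 2244, 553 and 277 CPM at day 30 and 339.8, 21.4 and 41.8 CPM at day 3 (log2 difference 3.35 ± 0.77, adjusted p = 0.0296). Day 30 replicate 3 of Lck lay below day 3 replicate 1, so its groups overlap, although each day 30 library was above the day 3 library of the same number. Cd2, an adhesion and costimulatory receptor, was at 1106, 169 and 154 CPM at day 30 and 190.2, 12.7 and 6.96 CPM at day 3 and overlapped in the same way (log2 difference 3.48 ± 0.82, adjusted p = 0.0431). Cd27, a costimulatory receptor of the tumour necrosis factor receptor family, was at 461, 173 and 146 CPM at day 30 and 90.3, 4.55 and 8.03 CPM at day 3 and did not overlap (log2 difference 3.78 ± 0.82, adjusted p = 0.0196).

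The rest of this list pointed the same way without passing. All 19 tested members had a positive difference, from 1.24 to 3.78, with a median of 2.47 beside -0.09 over all genes. For 7 of the 19 all day 30 libraries lay above all day 3 libraries, against 4.37% of all tested genes. Cd3d, the delta chain of CD3, had a log2 difference of 2.66 ± 0.69 and an adjusted p of 0.0807, and Lat, the adaptor downstream of Zap70, one of 2.91 ± 0.74 and 0.0708. With the replicate block, 11 of the 19 rose, among them Cd3d and Lat (adjusted p = 0.00177 and 0.00231). Without day 3 replicate 2, without day 3 replicate 3 or without day 30 replicate 1, none of the 19 passed. Without day 30 replicate 2, 2 passed, and without day 3 replicate 1, 11 did. None of the 19 passed by edgeR, after median centring, when 0.1 was the pseudocount, or when the filter on low levels was dropped or raised to 10 CPM. The mean of log2(CPM + 1) over the list was 9.73, 8.01 and 7.77 in the day 30 libraries and 7.68, 4.65 and 5.65 in the day 3 libraries, so day 3 replicates 2 and 3 were the low ones.

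Of the other genes that rose, 4 encode an adaptor or an enzyme of receptor signalling, grouped here after their values were seen. Sh2d1a, which encodes SAP, the adaptor of SLAM family receptors, was at 188, 301 and 182 CPM at day 30 and 32, 1.36 and 14.5 CPM at day 3 (log2 difference 4.36 ± 0.80, adjusted p = 0.00257). Its lowest day 30 library was several times its highest day 3 library. Ptpn22, a phosphatase that restrains Lck and Zap70, was at 872, 803 and 497 CPM at day 30 and 189, 22.7 and 69.1 CPM at day 3 (log2 difference 3.37 ± 0.70, adjusted p = 0.0116). Txk, a kinase of the Tec family, was at 251, 266 and 477 CPM at day 30 and 66.3, 8.64 and 55.7 CPM at day 3 (log2 difference 3.26 ± 0.73, adjusted p = 0.0229). Inpp4b, a lipid phosphatase of the phosphoinositide pathway, was at 376, 163 and 340.1 CPM at day 30 and 29.5, 17.7 and 41.8 CPM at day 3 (log2 difference 3.25 ± 0.71, adjusted p = 0.0196). None of these 4 genes overlapped between the times, and Txk was 1 of the 2 genes that rose among 18 of naive and recirculating T cells. Without day 3 replicate 2 each of the 4 lost its call, with adjusted p = 0.0732 for Sh2d1a, 0.109 for Ptpn22, 0.27 for Txk and 0.11 for Inpp4b. Ptpn22 and Txk also lost it without day 30 replicate 2 (both 0.0685), Txk and Inpp4b without day 30 replicate 3 (0.182 and 0.132), and Inpp4b without day 30 replicate 1 (0.0664).

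Ms4a4b, a membrane protein of T cells, rose. It was at 7002, 3298 and 4324 CPM at day 30 and 1177, 76.9 and 439 CPM at day 3 (log2 difference 3.76 ± 0.69, adjusted p = 0.00257), and it was the 1 gene of the 22 that passed with each of the 6 libraries left out in turn. Bcl2, which protects lymphocytes from cell death, was at 944, 823 and 958 CPM at day 30 and 222, 31.8 and 78.2 CPM at day 3 (log2 difference 3.44 ± 0.69, adjusted p = 0.0071). Its 3 day 30 libraries lay close together, while its day 3 levels spread. AW112010, annotated as a long non-coding RNA on chromosome 19, was at 4351, 4421 and 4763 CPM at day 30 and 1221, 47.3 and 691 CPM at day 3 (log2 difference 3.71 ± 0.74, adjusted p = 0.0071). Fam189b, a membrane protein gene, was at 509.7, 231 and 203 CPM at day 30 and 44.7, 10.9 and 49.3 CPM at day 3 (log2 difference 3.26 ± 0.72, adjusted p = 0.0196). When day 3 replicate 2 was left out, the adjusted p was 0.0577 for Bcl2 and for AW112010 and 0.18 for Fam189b, which also lost its call without day 30 replicate 1 (0.0956) or 2 (0.0549).

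The Gimap family, GTPases that support lymphocyte survival, pointed one way. Gimap4 was at 2726, 755 and 1087 CPM at day 30 and 404, 38.7 and 161 CPM at day 3 and rose (log2 difference 3.25 ± 0.70, adjusted p = 0.0196). The differences of all 8 members were positive, from 2.18 to 3.25, with a median of 2.83. For 5 of the 8 all day 30 libraries lay above all day 3 libraries, against 4.37% of all tested genes. Gimap3 was at 1891, 478 and 349 CPM at day 30 and 461, 19.6 and 61.6 CPM at day 3 (adjusted p = 0.0665) and Gimap6 at 1504, 505 and 538 CPM at day 30 and 366, 25.9 and 108 CPM at day 3 (adjusted p = 0.0704), so neither passed. With the replicate block 6 of the 8 rose. None passed without day 30 replicate 1, day 30 replicate 3 or day 3 replicate 2. Nor did any by edgeR, after median centring, when 0.1 was the pseudocount, when the filter was dropped or raised to 10 CPM, or in the 6 stroke libraries alone.

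Of the 18 genes in the list of cytotoxic effectors, 3 rose, among them Klrc1, which encodes an inhibitory receptor rather than an effector. Nkg7, a granule membrane protein needed for degranulation, was at 9196, 3742 and 4149.9 CPM at day 30 and 2393, 91 and 412 CPM at day 3 (log2 difference 3.54 ± 0.72, adjusted p = 0.00968). Fasl, the ligand that triggers death through the Fas receptor, was at 546, 132 and 84.5 CPM at day 30 and 20.9, 3.64 and 23.6 CPM at day 3 (log2 difference 3.76 ± 0.87, adjusted p = 0.0325). Klrc1, the gene of the inhibitory lectin receptor NKG2A, was at 432, 314 and 439 CPM at day 30 and 100.2, 4.09 and 37.5 CPM at day 3 (log2 difference 3.85 ± 0.85, adjusted p = 0.0196). In all 3 the day 30 libraries lay above the day 3 libraries.

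The granule proteases and perforin did not pass. Gzmk, granzyme K, was at 748, 275 and 203 CPM at day 30 and 78.6, 16.8 and 39.6 CPM at day 3 with no overlap (log2 difference 3.17 ± 0.86, adjusted p = 0.106). Gzmb, granzyme B, was at 439.5, 35.4 and 51 CPM at day 30 and 148, 32.8 and 53.6 CPM at day 3, and Prf1, perforin, at 106, 6.89 and 0.903 CPM at day 30 and 44.4, 18.7 and 4.82 CPM at day 3. Both overlapped widely (adjusted p = 0.999 and 0.999). Of the 18 listed genes, 13 had a positive difference and 5 a negative one, with a median of 1.23. With the replicate block 5 of the 18 rose. Without day 3 replicate 2 none did, and with any other of the 6 libraries left out 1 to 5 did. None of the 18 passed by edgeR, after median centring, when 0.1 was the pseudocount or when the filter was raised to 10 CPM, and 1 passed when it was dropped.

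The Ly49 receptors, lectin-like receptors of natural killer cells and some CD8 T cells that bind MHC class I, held the largest rise among the genes that passed. Klra6 and Klra19 carried identical counts in every library, at 23.6, 57.9 and 191 CPM at day 30 and 0.317, 3.18 and 1.61 CPM at day 3 for each (log2 difference 4.75 ± 0.99, adjusted p = 0.012). Klra23 was at 130.5, 138 and 185 CPM at day 30 and 13.3, 8.64 and 7.5 CPM at day 3 (log2 difference 3.83 ± 0.84, adjusted p = 0.0196), and the pseudogene Klra13-ps, named after its values were seen, at 125, 123 and 182 CPM at day 30 and 13, 7.28 and 7.5 CPM at day 3 (log2 difference 3.83 ± 0.85, adjusted p = 0.0206). The day 3 levels of all 4 were at most 13.3 CPM. All 4 lost their call without day 30 replicate 2 or 3, with adjusted p = 0.0549 and 0.208 for Klra6 and Klra19, 0.0694 and 0.123 for Klra23 and 0.0703 and 0.136 for Klra13-ps. Klra23 and Klra13-ps also lost it without day 3 replicate 2 (0.0949 and 0.111) or 3 (both 0.123). These genes lie in a cluster of near-identical copies on chromosome 6, so their reads may belong to another member, and the 4 names may stand for fewer genes. Klra7, another Ly49 gene, was at 22.9, 111 and 443 CPM at day 30 and 45.3, 1.82 and 2.14 CPM at day 3 and overlapped (adjusted p = 0.099). Ncr1, a defining receptor of natural killer cells, was at 0.906, 6.43 and 1.35 CPM at day 30 and 0.634, 5.46 and 6.43 CPM at day 3, with 21 and 26 reads in all. Of the 11 tested natural killer genes, none passed in limma, an unadjusted p under 0.05 was reached by 5 on the higher and 1 on the lower side, edgeR called none and DESeq2 1. Of the 11, 7 had a positive difference and 4 a negative one, with a median of 1.03. The mean of log2(CPM + 1) over the list was 5.20, 5.75 and 5.44 in the day 30 libraries and 4.925, 4.12 and 4.11 in the day 3 libraries. The list shares Tyrobp with the monocyte and macrophage list, and its share of the reads was 0.119 to 0.279% at day 30 and 0.152 to 0.480% at day 3.

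Cxcr6 and Xcl1, tied to homing and to contact with other cells, rose. Cxcr6, the receptor for CXCL16, was at 3651, 461 and 540.1 CPM at day 30 and 209.8, 11.4 and 69.6 CPM at day 3 (log2 difference 4.09 ± 0.80, adjusted p = 0.00591). Every day 30 library lay above every day 3 library, and the difference was 4.11 in replicate 1 and 4.08 in replicates 2 and 3. Without day 30 replicate 1 its adjusted p was 0.0603, and without day 3 replicate 2 it was 0.111. Xcl1, the chemokine that attracts cross-presenting dendritic cells, was at 874, 286 and 333 CPM at day 30 and 199.7, 0.91 and 57.3 CPM at day 3 (log2 difference 3.96 ± 0.95, adjusted p = 0.046). It was the 1 of 14 T cell effector cytokine and chemokine genes that rose. In day 3 replicate 2 its level lay under the 3-read limit, and without that library its adjusted p was 0.907. It also lost its call without day 30 replicate 1, 2 or 3 (adjusted p = 0.121, 0.0685 and 0.0874), by edgeR and by DESeq2, after median centring, when 0.1 was the pseudocount, and when the filter was dropped or raised to 10 CPM.

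Of 17 tested tissue residency genes, 2 rose (Cxcr6 and Inpp4b), none fell and the median was 0.54. The difference was positive for 12 of the 17 and negative for 5, and the median was 0.25 in unscaled CPM and 0.15 by DESeq2. Cd69, the receptor that counters exit from tissue, was at 1467, 402 and 559 CPM at day 30 and 678, 92.3 and 351 CPM at day 3, with overlap (adjusted p = 0.932). Rgs1, a brake on chemokine receptor signals, was at 2111, 622 and 960.1 CPM at day 30 and 2798, 179 and 522 CPM at day 3, with overlap (adjusted p = 0.999). Itgae, the integrin chain CD103 of many resident cells, was at 31, 29.8 and 24.4 CPM at day 30 and 58.6, 29.1 and 26.8 CPM at day 3, with overlap (adjusted p = 0.999). Its level in day 3 replicate 1 lay above that in every other stroke library. Of 18 genes of naive and recirculating T cells, Ms4a4b and Txk rose and none fell. The difference was positive for 15 of the 18 and negative for 3, Klf2 and Ccr7 among them, with a median of 1.32. Klf2, a transcription factor of recirculating cells, was at 449, 140.0 and 125 CPM at day 30 and 1054, 137 and 227 CPM at day 3 and overlapped between the times (adjusted p = 0.999), as did Ccr7, the lymph node homing receptor, at 570.5, 15.6 and 28 CPM at day 30 and 1032, 70.5 and 116 CPM at day 3 (adjusted p = 0.901).

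Of 67 genes of inhibitory receptors, cytokine receptors, fate-determining transcription factors and homing receptors, none passed in limma. Without adjustment, 18 of the 67 were higher and 3 lower at p under 0.05, edgeR called none and DESeq2 called 3. Of all 20345 tested genes, 566 were higher and 609 lower at the same unadjusted limma p. Pdcd1, the gene of PD-1, was at 173, 22.5 and 55.1 CPM at day 30 and 56.1, 5.46 and 30 CPM at day 3 (adjusted p = 0.999). Tox, a transcription factor of persistently stimulated T cells, was at 106, 163 and 47 CPM at day 30 and 16.5, 5.0 and 11.8 CPM at day 3, without overlap (log2 difference 3.10 ± 0.81, adjusted p = 0.0809; 0.0299 with the replicate block). Ccr9, a gut-homing receptor, was at 44.9, 60.1 and 64.6 CPM at day 30 and 264, 376 and 515 CPM at day 3, lower in all 3 day 30 libraries (log2 difference -2.71 ± 0.73, adjusted p = 0.104; 0.0276 with the replicate block). The medians were 1.15 over 16 inhibitory and exhaustion genes, 0.90 over 16 cytokine receptor and SOCS genes, 1.01 over 19 transcription factors and 0.08 over 16 homing and adhesion receptors, the last being -0.22 in unscaled CPM.

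**Figure D2:**
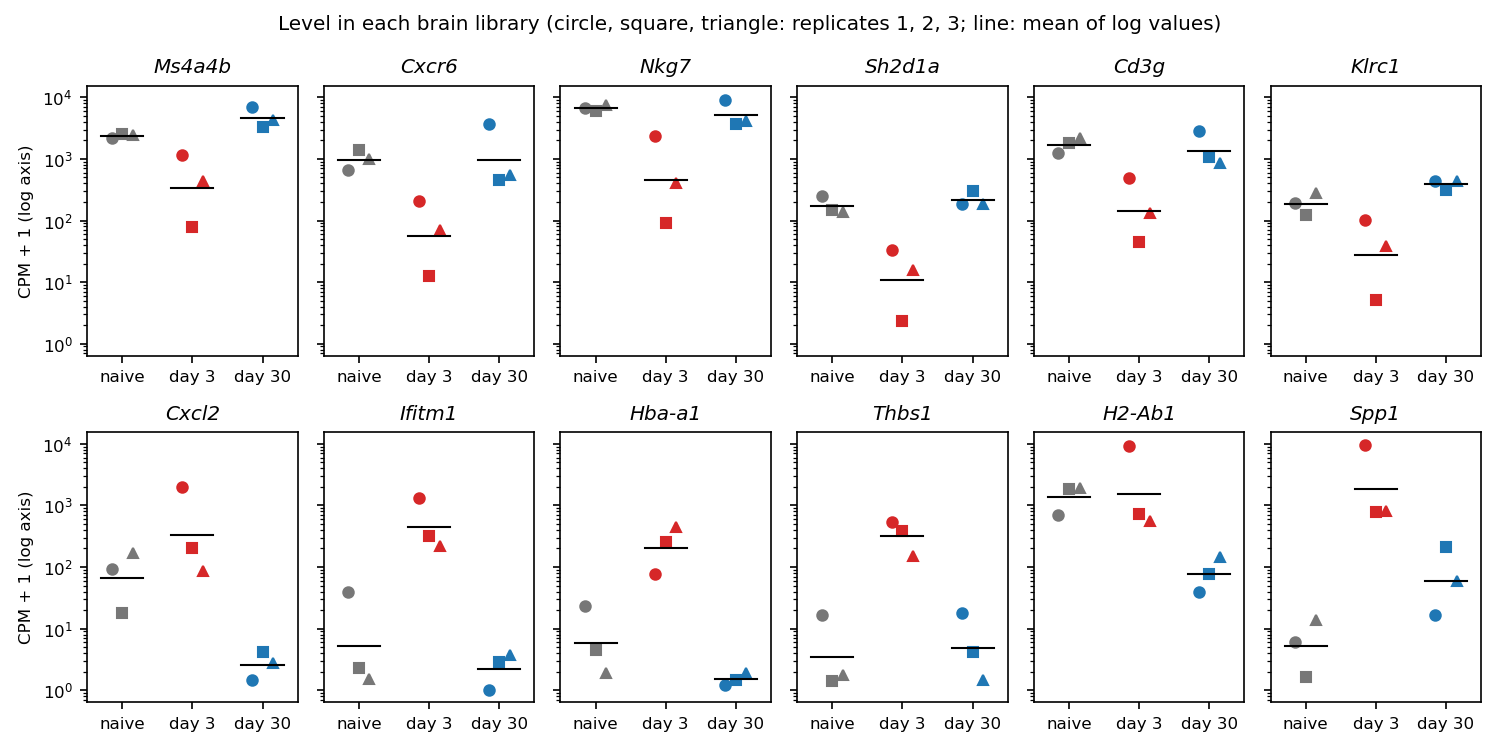
Level of 12 genes as CPM + 1 on a log axis in each naive brain, day 3 and day 30 library; marker shapes give replicates 1, 2 and 3 and lines the mean of the log values. The 6 genes that rose are in the upper row and the 6 that fell in the lower row, and in none of the 12 do the day 30 and day 3 libraries overlap.

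Haemoglobin transcripts fell. Hba-a1 and Hba-a2, the alpha chains, carried identical counts, at 0.227, 0.459 and 0.903 CPM at day 30 and 75.1, 258 and 449 CPM at day 3 for each (log2 difference -7.10 ± 1.03, adjusted p = 4.27e-05). Hbb-b1 and Hbb-bs, beta chains with identical counts, were at 0.227, 1.84 and 0 CPM at day 30 and 42.8, 228 and 561 CPM at day 3 (log2 difference -6.88 ± 1.02, adjusted p = 4.74e-05). Hbb-b2 and Hbb-bt, again with identical counts, held 1 read over the day 30 libraries and 407 over the day 3 libraries, a ratio of 496 (95% counting interval 88.6 to 19654). They passed with an adjusted p of 0.046, which was 0.0535 with the replicate block. Their call was also lost without replicate 2 or 3 of either time (adjusted p at most 0.344). The 6 names stand for at most 3 separate measurements, because reads of the identical copies cannot be assigned.

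Reads of red cell genes separated the times. Haemoglobin reads made up 0.0158 to 0.338% of the day 3 libraries and 0.00019 to 0.00116% of the day 30 libraries, and the day 3 share was lowest in replicate 1. These shares add every haemoglobin name. Reads under names with identical counts therefore enter more than once, and the shares are overstated. Of the 11 tested erythroid and platelet genes, 4 fell and 10 had a negative difference. The 4 were Hba-a1, Hba-a2, Hbb-bs and Hbb-bt, and Hba-a1 and Hba-a2 share their counts. Pf4, a platelet chemokine, was at 14.3, 6.89 and 0 CPM at day 30 and 111, 55.5 and 4.82 CPM at day 3 and overlapped (adjusted p = 0.795). Whether red cells or platelets carried any other gene that fell was not tested.

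Among the genes that fell were 3 chemokines and the cytokine Il1b, grouped here after their values were seen. Cxcl2, a neutrophil-attracting chemokine, was at 0.453, 3.21 and 1.81 CPM at day 30 and 1990.4, 204 and 84.6 CPM at day 3 (log2 difference -6.98 ± 1.0, adjusted p = 4.27e-05). Its highest day 30 library was far under its lowest day 3 library, and it passed with each of the 6 libraries left out. Cxcl1, its close relative and neighbour, named after its values were seen, had no read in any day 30 library and 78.3, 8.64 and 15 CPM at day 3 (adjusted p = 0.0213). Over the group it was at least 119.5-fold higher at day 3, with 3 reads taken as the limit over the day 30 libraries. That bound pools the reads of each time and leaves out the spread between libraries. Il1b, interleukin 1 beta, was at 1.36, 8.26 and 0 CPM at day 30 and 615, 62.3 and 39.6 CPM at day 3 (log2 difference -5.38 ± 1.23, adjusted p = 0.0285). Ccl7, a monocyte-attracting chemokine, was at 0.227, 4.59 and 0.452 CPM at day 30 and 868, 63.7 and 8.57 CPM at day 3 (log2 difference -5.24 ± 1.25, adjusted p = 0.046), and day 3 replicate 3 was close to the day 30 level. Day 3 replicate 1 held the highest level of both, and without it the adjusted p was 0.202 for Il1b and 0.274 for Ccl7. Both also lost their call without day 3 replicate 2 (0.0949 and 0.174) or day 30 replicate 3 (0.182 and 0.17), and Ccl7 without day 30 replicate 1 (0.0961). Cxcl1 lost its call without any 1 of the day 30 libraries (adjusted p at most 0.109). Other chemokine genes did not pass in limma, such as Ccl2, which attracts monocytes (log2 difference -3.17 ± 0.96, adjusted p = 0.207; 0.038 by edgeR), and Cxcl3, a relative of Cxcl2 (log2 difference -3.11 ± 0.91, adjusted p = 0.166).

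Cxcl1 and Cxcl2 lie side by side on chromosome 5, and their promoters are shown because both genes fell and both sequences hold the same kind of site. The 150 bases before each start (RefSeq, GRCm38.p6, plus strand; Cxcl1 at chr5:90891095-90891244 and Cxcl2 at chr5:90903749-90903898) are printed with matches to GGNNTTTCC, a core form of the NF-kB site, in capitals, on either strand.
Cxcl1: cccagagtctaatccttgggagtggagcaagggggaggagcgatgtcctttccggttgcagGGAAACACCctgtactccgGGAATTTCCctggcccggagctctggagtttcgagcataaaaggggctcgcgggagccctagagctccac
Cxcl2: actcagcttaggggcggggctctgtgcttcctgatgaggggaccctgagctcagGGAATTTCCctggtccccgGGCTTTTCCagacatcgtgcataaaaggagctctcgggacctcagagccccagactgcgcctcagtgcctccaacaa
Each window held 2 matches, 70 and 89 bases before the RefSeq start of Cxcl1 and 77 and 96 bases before that of Cxcl2. The match at 89 bases in Cxcl1 is on the minus strand. GENCODE vM21 starts both genes inside these windows, at 90891241 for Cxcl1 and 90903871 for Cxcl2. Of all 32851 promoter windows of the same length in the table, 1027 (3.13%) held at least 1 match. A match describes these letters and is not a bound site.

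MHC class II genes present antigen to CD4 T cells, and mouse T cells are not known to make them. Of these genes, 4 fell. H2-Ab1, the beta chain of I-A, was at 38.3, 76.7 and 145 CPM at day 30 and 9191, 715 and 562 CPM at day 3 (log2 difference -4.34 ± 0.77, adjusted p = 0.00181), and it passed with each of the 6 libraries left out. H2-Aa, its alpha chain, was at 24.9, 311 and 299 CPM at day 30 and 9408, 676 and 1282 CPM at day 3 (log2 difference -3.91 ± 0.85, adjusted p = 0.0196), and H2-Eb1, the beta chain of I-E, at 10.9, 87.2 and 88.1 CPM at day 30 and 4516, 434 and 295 CPM at day 3 (log2 difference -4.20 ± 0.84, adjusted p = 0.00754). All day 30 libraries were below all day 3 libraries for these 3 genes, and day 3 replicate 1 was far above every other library of the 6. H2-DMb1, which helps load peptides, was at 24.5, 1.38 and 0 CPM at day 30 and 783, 19.6 and 58.9 CPM at day 3 (log2 difference -4.65 ± 1.06, adjusted p = 0.0285), and its groups overlapped. Cd74, the invariant chain, was at 177, 446 and 631 CPM at day 30 and 13624, 701 and 1196 CPM at day 3 and did not pass (log2 difference -2.61 ± 0.75, adjusted p = 0.152). The adjusted p was 0.213 for H2-Aa, 0.128 for H2-Eb1 and 0.292 for H2-DMb1 without day 3 replicate 1. Without day 30 replicate 1 it was 0.171 for H2-Aa and 0.0589 for H2-Eb1, and H2-DMb1 also lost its call without day 30 replicate 2 (0.115) or 3 (0.221) or day 3 replicate 3 (0.0531).

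H2-Aa and H2-Eb1 are neighbours on chromosome 17, and their promoters are shown because class II promoters share a Y box. The 150 bases before each start (RefSeq, GRCm38.p6; H2-Aa at chr17:34287824-34287973 on the minus strand and H2-Eb1 at chr17:34305717-34305866 on the plus strand) are printed in the direction of the gene, with GATTGG, the core of the Y box, in capitals on either strand.
H2-Aa: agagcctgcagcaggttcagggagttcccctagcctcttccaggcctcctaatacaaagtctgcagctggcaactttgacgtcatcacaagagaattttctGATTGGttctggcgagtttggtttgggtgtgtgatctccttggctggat
H2-Eb1: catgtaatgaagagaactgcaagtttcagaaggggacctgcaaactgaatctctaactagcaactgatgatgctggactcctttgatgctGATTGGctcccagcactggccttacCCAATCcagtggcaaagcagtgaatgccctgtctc
The core stood 49 bases before the start of H2-Aa, 60 and, on the other strand, 35 bases before that of H2-Eb1, and 62 bases before that of H2-DMb1. Of the 32851 windows, 3595 (10.9%) held GATTGG. The longer CTGATTGG, which overlaps it, was in H2-Aa and H2-Eb1 and in 1039 windows (3.16%). Of the 50 genes called, 35 had a promoter sequence in the table.

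These genes belong to a list that joins MHC class II genes with dendritic cell genes such as Flt3, Xcr1 and Clec9a. Of its 17 tested members, the 4 class II genes fell, none rose, and all 17 had a negative difference (median -2.67). For 10 of the 17 all day 30 libraries lay below all day 3 libraries, against 5.12% of all tested genes. The difference was larger between the replicate 1 libraries (median -4.94, beside 0.29 over all tested genes) than in replicates 2 and 3 (median -1.83, beside -0.28). H2-Eb1, for example, differed by -8.57 in replicate 1 and by -2.02 in the other replicates. Reads on this list made up 0.716 to 2.56% of the day 3 libraries and 0.0615 to 0.208% of the day 30 libraries. Without day 3 replicate 1, 1 of the 17 passed, and without day 30 replicate 1, 2 did. After median centring, or without both replicate 1 libraries, none passed, and by edgeR 5 did. Clec10a, a lectin of dendritic cells and macrophages named after its values were seen, was at 1.36, 1.84 and 0 CPM at day 30 and 65.6, 50.5 and 57.3 CPM at day 3 (log2 difference -4.96 ± 1.15, adjusted p = 0.0325). It kept its call with 1 of the 6 libraries left out, day 30 replicate 1, and lost it with each of the others (adjusted p at most 0.17).

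Genes of the extracellular matrix and of wound repair were among those that fell. Spp1, osteopontin, was at 15.9, 209 and 57.4 CPM at day 30 and 9672, 788 and 807 CPM at day 3 (log2 difference -4.96 ± 0.96, adjusted p = 0.00555). Thbs1, thrombospondin 1, which activates latent TGF-beta, was at 17.2, 3.21 and 0.452 CPM at day 30 and 532, 389.9 and 153 CPM at day 3 (log2 difference -6.04 ± 1.04, adjusted p = 0.00107), and it passed with each of the 6 libraries left out. Tgfbi, a TGF-beta induced matrix protein, was at 11.6, 2.3 and 7.68 CPM at day 30 and 959, 177 and 55.2 CPM at day 3 (log2 difference -4.90 ± 0.96, adjusted p = 0.00573). None of the 3 overlapped. Spp1 was uneven at day 30, where replicate 2 stood above the other 2, and without day 3 replicate 1 its adjusted p was 0.119. Without that library the adjusted p of Tgfbi was 0.0924, and without day 30 replicate 2 it was 0.0518.

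Of the 25 tested members of the matrix list, 2 fell and none rose. The difference was negative for 21 and positive for 4, from -6.04 to 0.70 with a median of -2.04. For 11 of the 25 all day 30 libraries lay below all day 3 libraries, against 5.12% of all tested genes. Fn1, fibronectin, was at 5.21, 27.1 and 42 CPM at day 30 and 977, 161 and 94.8 CPM at day 3 (adjusted p = 0.0832), and Lgals3, galectin 3, at 140.5, 4.13 and 98.9 CPM at day 30 and 1908, 214 and 245 CPM at day 3 (adjusted p = 0.091; 0.0213 with the replicate block). With the replicate block 4 of the 25 fell, and without day 3 replicate 1, 1 did. The other 13 tested genes of the TGF-beta pathway did not pass, and Tgfbi was the 1 member that fell.

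Ifitm1, a membrane protein of the interferon-induced transmembrane family, showed the largest difference of all genes that passed. It was at 0, 1.84 and 2.71 CPM at day 30 and 1336, 315 and 222 CPM at day 3 (log2 difference -7.70 ± 1.17, adjusted p = 7.1e-05). The day 30 libraries held 10 reads in all and the day 3 libraries 5322, and the gene passed with each of the 6 libraries left out. Without both replicate 1 libraries it did not pass, and neither did any other member of the family. Its neighbours Ifitm2, at 29, 21.6 and 21.2 CPM at day 30 and 2089, 318 and 214 CPM at day 3 (log2 difference -4.41 ± 1.08, adjusted p = 0.0521), and Ifitm3, at 78.4, 50.5 and 182 CPM at day 30 and 3107, 176 and 396 CPM at day 3 (log2 difference -2.73 ± 0.87, adjusted p = 0.274), did not pass. Ifitm6 was at 0.227, 0 and 0 CPM at day 30 and 69.4, 9.1 and 5.36 CPM at day 3. Ifitm10, a more distant member, had a positive difference of 2.23 ± 0.86 (adjusted p = 0.529). Without day 30 replicate 1 or day 3 replicate 3, 2 of the 5 family members fell. None of the 27 type I interferon-stimulated genes passed in limma, edgeR or DESeq2, without adjustment 2 were higher and 1 lower at p under 0.05, and their median was 0.20, or -0.10 in unscaled CPM and -0.01 after quantile normalization.

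Secreted protease inhibitors and a lipoprotein gene were also lower. Slpi, an inhibitor of leukocyte proteases, was at 0.68, 3.21 and 22.6 CPM at day 30 and 206, 129.7 and 347 CPM at day 3 (log2 difference -5.26 ± 1.02, adjusted p = 0.00555). Mir7678, a microRNA gene that lies inside Slpi on the same strand, held 3 reads at day 30 and 663 at day 3, a ratio of 270 (95% counting interval 91.8 to 1310), and its reads may be those of Slpi. Wfdc17, a related protein of macrophages, was at 9.06, 30.3 and 56.5 CPM at day 30 and 1272, 299.8 and 516 CPM at day 3 (log2 difference -4.47 ± 1.07, adjusted p = 0.046; 0.071 with the replicate block). Apoc2, the apolipoprotein that activates lipoprotein lipase, was at 0.227, 10.1 and 0 CPM at day 30 and 1068, 34.1 and 156 CPM at day 3 (log2 difference -6.24 ± 1.21, adjusted p = 0.00573). It was the 1 of 16 lipid handling genes that fell. Slpi lost its call without day 3 replicate 3 (adjusted p = 0.0868) and Apoc2 without day 30 replicate 3 (0.0527). Wfdc17 kept its call without day 30 replicate 3 and lost it with each of the other 5 libraries left out (adjusted p at most 0.254).

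The remaining genes that fell encode surface and endosomal proteins. Ly6d, a surface protein of early B cells and epithelia, was at 0.227, 63.4 and 161 CPM at day 30 and 1061, 184 and 1717 CPM at day 3 (log2 difference -4.89 ± 1.0, adjusted p = 0.00948). Slamf9, a SLAM family receptor of myeloid cells, was at 21.1, 0 and 3.16 CPM at day 30 and 178, 76 and 90 CPM at day 3 (log2 difference -4.58 ± 1.01, adjusted p = 0.0196). Both were lower in every day 30 library, with day 30 replicate 1 the lowest for Ly6d and the highest for Slamf9. Ifi30, the thiol reductase GILT of antigen processing, was at 60.5, 6.43 and 32.1 CPM at day 30 and 1084, 250.2 and 154 CPM at day 3 (log2 difference -3.82 ± 0.85, adjusted p = 0.0229). Csf2rb, the shared chain of the receptors for GM-CSF, interleukin 3 and interleukin 5, was at 8.16, 23.4 and 15.8 CPM at day 30 and 327, 124 and 207 CPM at day 3 (log2 difference -3.72 ± 0.88, adjusted p = 0.0439). Smim5, a small membrane protein, was at 0, 1.84 and 3.16 CPM at day 30 and 119, 65.5 and 125 CPM at day 3 (log2 difference -5.46 ± 1.18, adjusted p = 0.0187). The values of Ly6d, Slamf9, Ifi30 and Csf2rb had been seen before these genes were chosen. The 5 genes did not overlap between the times, although 1 day 30 library of Ly6d came near the lowest day 3 library. All 5 depended on single libraries. Csf2rb lost its call with any 1 of the 6 libraries left out (adjusted p at most 0.206), and Slamf9 with any but day 30 replicate 1 (at most 0.253). Smim5 lost it without any 1 of the day 3 libraries (at most 0.108), Ly6d without either replicate 1 library or day 3 replicate 3 (at most 0.195), and Ifi30 without day 30 replicate 2 or day 3 replicate 1 or 2 (at most 0.289).

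Of the markers of other cells, those of monocytes, macrophages and neutrophils were mostly lower at day 30. The part of other cells in the differences was not tested. Of 22 monocyte and macrophage genes, 1 fell (Wfdc17), none rose and 21 had a negative difference (median -1.71). They took 1.33 to 3.04% of the day 3 reads and 0.533 to 0.950% of the day 30 reads, ranges that do not overlap. Lyz2, lysozyme of myeloid cells, was at 502, 118 and 363 CPM at day 30 and 7864, 413 and 495 CPM at day 3 (adjusted p = 0.624). Of 18 microglia genes none passed in limma or edgeR and 1 in DESeq2, with 2 lower at an unadjusted p under 0.05. The difference was negative for 13 of the 18 and positive for 5, with a median of -0.40, beside 11034 negative and 9311 positive over all tested genes. Microglia genes took 0.640 to 2.49% at day 3 and 0.520 to 1.33% at day 30, ranges that overlap. Tmem119 and P2ry12, defining genes of resting microglia, were at 186, 31.7 and 37.5 CPM at day 30 and 396, 16.8 and 35.3 CPM at day 3 and at 862, 99.2 and 350.0 CPM at day 30 and 679.9, 25 and 221 CPM at day 3. Neutrophil genes took 0.0233 to 0.0326% of the day 3 reads and 0.00554 to 0.0119% of the day 30 reads, ranges that do not overlap. Of the 14 tested, 12 had a negative difference (median -1.36), none passed in limma or edgeR and 1 in DESeq2, with 2 lower at an unadjusted p under 0.05. S100a8, their abundant calcium-binding protein, was at 0, 3.21 and 0 CPM at day 30 and 40.3, 7.28 and 15 CPM at day 3. Neuronal genes took at most 0.0352%. None of the genes of B cells, CD4 and regulatory T cells, endothelial and mural cells, astrocytes, the oligodendrocyte lineage or neurons passed in limma. The medians of these lists were, in that order, 0.03, -0.15, -0.17, -0.78, -0.05 and 0.24.

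**Figure D3:**
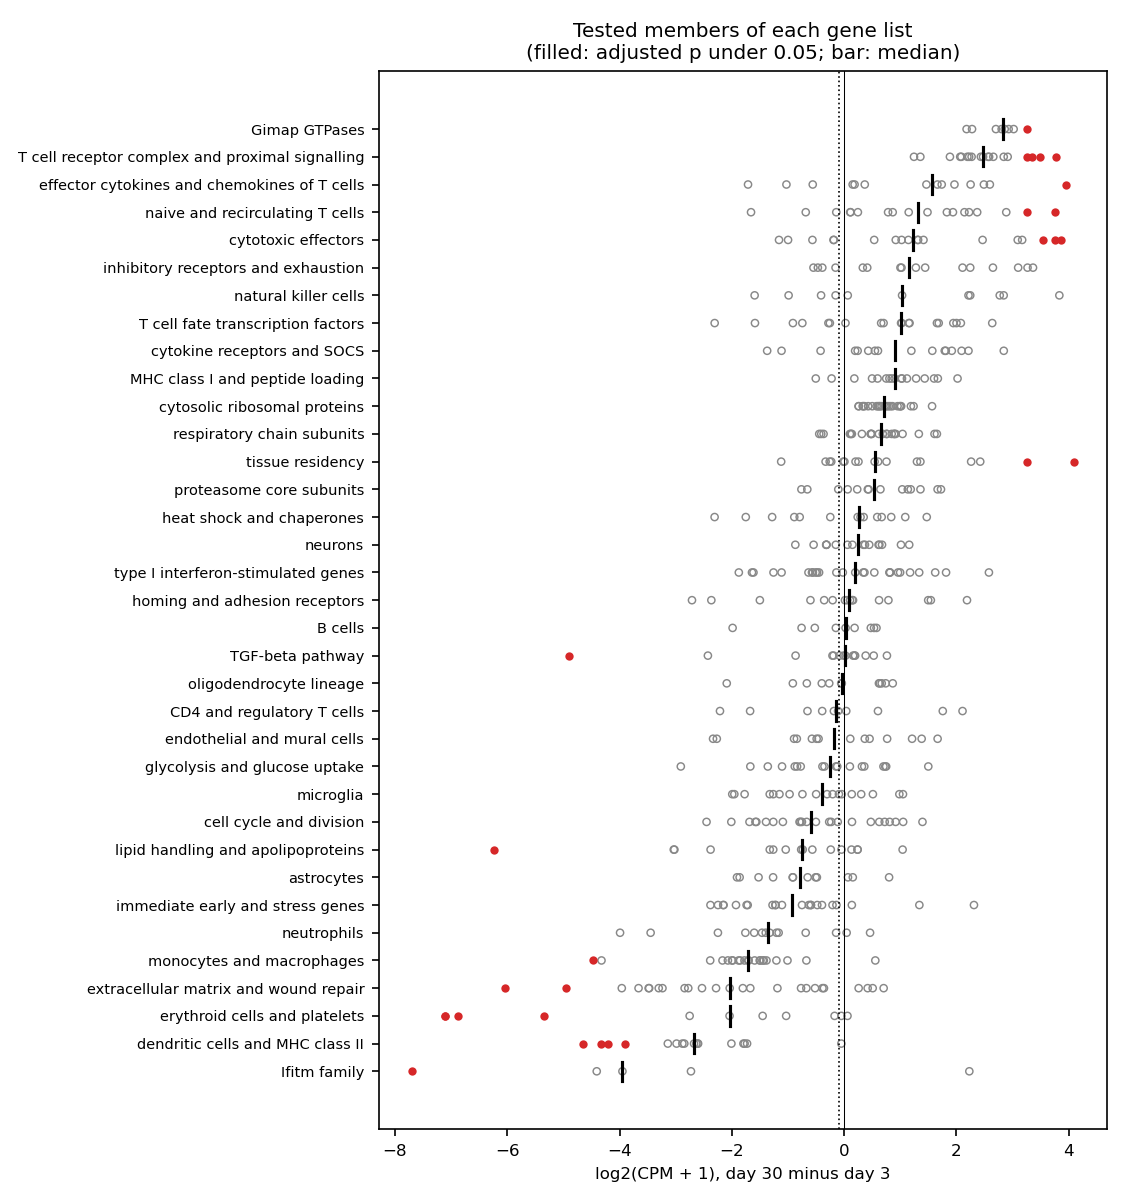
Log2 difference, day 30 minus day 3 (x axis), of each tested member of 35 gene lists (y axis), sorted by the list's median (black bar); filled points passed the threshold and the dotted line is the median of all tested genes. Gimap and T cell receptor genes lie at the upper end, with medians of 2.83 and 2.47, and Ifitm genes and the joint list of class II and dendritic cell genes at the lower end, with medians of -3.95 and -2.67.

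Of 155 genes of cell state programmes outside these groups, none passed in limma or edgeR and 1 did in DESeq2. Before adjustment, 8 were higher and 8 lower at a limma p under 0.05, beside 566 and 609 of all 20345 tested genes. Immediate early genes, known to respond fast to stimulation and to tissue handling, had 19 negative differences of 22 (median -0.93). Fos was at 1465, 214 and 361 CPM at day 30 and 5048, 1014 and 822 CPM at day 3 (adjusted p = 0.655), and Jun at 645, 74.8 and 91.2 CPM at day 30 and 1658, 910.3 and 319 CPM at day 3 (adjusted p = 0.308; 0.0354 with the replicate block). Both overlapped, with day 30 replicate 1 above at least 1 day 3 library. The 24 ribosomal protein genes all had positive differences, from 0.26 to 1.57 with a median of 0.70, and none passed. Their median was 0.05 in replicate 1 and 0.98 in replicates 2 and 3, beside 0.29 and -0.28 over all tested genes. MHC class I and peptide loading genes had a median of 0.90 over 17, and H2-K1, a class I heavy chain, was at 6550.0, 2959.7 and 3188 CPM at day 30 and 3899.6, 723 and 1108 CPM at day 3 (adjusted p = 0.74; 0.0189 with the replicate block). Cell cycle genes had a median of -0.59 over 24, glycolysis genes -0.25 over 18, respiratory chain genes 0.65 over 22, proteasome genes 0.54 over 14 and heat shock genes 0.27 over 14, the last being -0.03 in unscaled CPM and -0.17 after quantile normalization.

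The rises and falls were unevenly spread over the replicates. All 50 genes had the same sign between the replicate 1 libraries as in replicates 2 and 3, which choosing them by this difference largely fixes. Of the 28 that fell, 18 differed more in replicate 1, and of the 22 that rose, 4 did. Spp1 differed by -9.16 in replicate 1 and -2.85 in replicates 2 and 3, whereas Sh2d1a differed by 2.51 and 5.28. Hba-a1 went the other way among the genes that fell, with -5.96 in replicate 1 and -7.68 in the others.

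**Figure D4:**
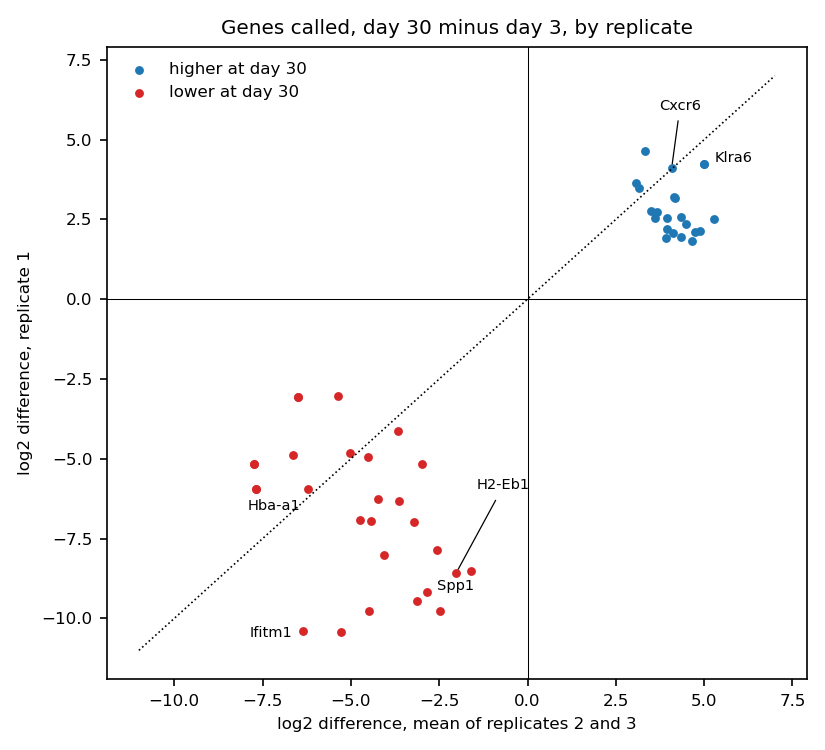
Log2 difference, day 30 minus day 3, of the 50 genes that passed, in replicates 2 and 3 (x axis, mean) and in replicate 1 (y axis); the dotted line marks equal differences. Cxcr6 lies on the line, Spp1 (-9.16 in replicate 1) and H2-Eb1 (-8.57) far below it, and Hba-a1 above it.

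Leaving out single libraries showed which genes rest on which samples. With each of the 6 libraries left out in turn, 1 of the 22 genes that rose (Ms4a4b) and 9 of the 28 that fell passed every time. The 9 were Cxcl2, Ifitm1, Thbs1, H2-Ab1, Mir7678, Hba-a1, Hba-a2, Hbb-b1 and Hbb-bs. Without day 3 replicate 2, 3 of the 22 that rose still passed, and without day 3 replicate 1 all 22 did. Without day 3 replicate 1, 14 of the 28 that fell still passed. Without day 30 replicate 1, 12 of those that rose and 21 of those that fell did.

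The naive brain libraries place the stroke libraries on a scale, and no test was made of the place. They held 3469973 to 21014171 reads, with 165 to 884 unscaled CPM on olfactory, vomeronasal and taste receptor genes. All lay under the split at 1335 unscaled CPM, as among the stroke libraries only replicate 1 of each time did. The part of these library differences in the place was not tested. For 20 of the 22 genes that rose (90.9%), the mean log2 level of the naive brain libraries was nearer to day 30 than to day 3, against 12314 of all tested genes (60.5%) and 17 of the 28 that fell (60.7%). Nkg7 was at 6775, 5945 and 7547 CPM in the naive brain libraries, Bcl2 at 387, 1128 and 1042 CPM and Cxcr6 at 652, 1395 and 989.9 CPM, all above the day 3 levels. Klra23, at 27.9, 8.4 and 68.9 CPM, and its pseudogene neighbour were nearer to day 3. Spp1, at 5.04, 0.646 and 12.6 CPM, lay below every day 30 library, and Ifitm1, at 38.7, 1.29 and 0.497 CPM, was above them in naive brain replicate 1. H2-Ab1 was at 707, 1834 and 1923 CPM, above every day 30 library, and Cxcl2 at 90.3, 17.2 and 166 CPM, also above them.

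**Figure D5:**
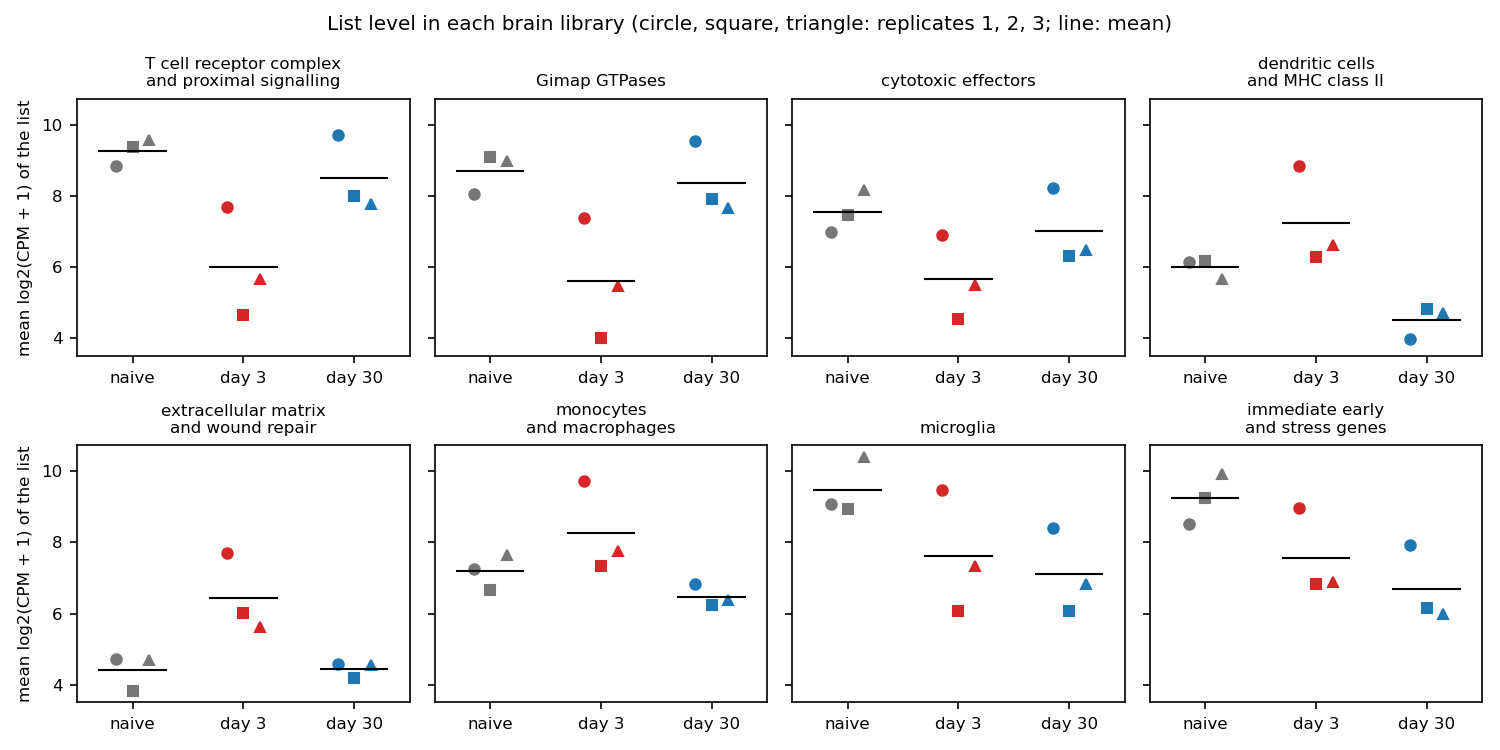
Mean log2(CPM + 1) over the tested members of 8 gene lists in each naive brain, day 3 and day 30 library; marker shapes give the replicates and lines the group mean. In the T cell receptor list every day 30 library lies above every day 3 library (7.77 to 9.73 against 4.65 to 7.68), and replicate 1 is highest at both times.

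Positions were taken from GENCODE vM21 on mm10, where 46 of the 50 genes were found and 19 of them overlapped another gene. Examples of the genes that rose are Cxcr6 at chr9:123806475-123811760 on the plus strand, which overlaps Fyco1 on the opposite strand, and Sh2d1a at chrX:42502453-42529330 on the plus strand, which overlaps Tenm1 on the opposite strand. Among the genes that fell, Thbs1 lies at chr2:118111876-118127133 on the plus strand and overlaps Gm29233 on the opposite strand, and Il1b lies at chr2:129364570-129371139 on the minus strand and overlaps Il1bos on the opposite strand. Ifitm1, at chr7:140967221-140969825 on the plus strand, and Ms4a4b, at chr19:11443553-11467055 on the plus strand, overlapped no other annotated gene. The strand setting of the counting is not given in the sources used here, so reads of a gene and of a partner on the opposite strand cannot be told apart.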

How the data were processed

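Sorted CD8 T cells were lysed, and ultra-low-input libraries were made with SMART-Seq v4, per the labels' protocols. That chemistry carries no molecular identifier, so PCR duplicates are counted as reads and each counting interval covers counting error alone. The submitters' processing notes list FastQC 0.11.2, STAR 2.5.3a, featureCounts (Subread), edgeR and the mm10 build. For the annotation, strand setting and filters, the sources used here give nothing. The authors deposited 1 table whose signal is CPM of a scaled library size. In each column all values were whole multiples of the worth of 1 read (100% to within 1e-06 reads), so reads were recovered. Equal counts above 0 were found in 1.26 to 3.56% of genes between any pair of the 6 stroke libraries.

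The test was limma 3.58.1 in R 4.3.3 on log2(CPM + 1), with empirical Bayes moderation and a trend, two-sided, with all 12 libraries in 4 groups of 3 sharing 1 spread. P-values were adjusted by Benjamini-Hochberg over the 20345 genes tested, with a threshold of 0.05. Differences are day 30 minus day 3 on that scale, given ± SE, and understate the change of genes with low counts. The scripts were tested on simulated data. The plan assumed plain CPM, and the scaled values went through the same test. To check the replicate numbers, deviations from the group means were correlated between day 30 and day 3. Same-numbered libraries gave 0.544, 0.300 and 0.176, each over 0.1, and were treated as pairs in the block fit, although no label links them. Replicates 3 of day 30 and of day 3 were closer to the other time's replicate 2 (0.187 and 0.227), and pairing cannot be told apart from the split by chemosensory receptor reads (below or above 1335 unscaled CPM).

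Members and the 36 gene lists were chosen with earlier results of these data known. By rule, the text names up to 15 genes per direction with the largest difference among those that passed, averaged 10 CPM or more in the higher group and did not overlap, without predicted loci, receptor segments and pseudogenes. From each list it names up to 4 members, called ones first and then those of highest mean level. Cd3d, Lat, Gzmb, Gzmk, Prf1, Cd69, Itgae, Pdcd1, Tox, Ccr9, Klra7, Ncr1, Pf4, Cd74, Ccl2, Cxcl3, Fn1, Lgals3, Ifitm6, Jun, Lyz2, Tmem119 and P2ry12 fall outside the rule, and their values had been seen when they were chosen. The table held 579 of 589 listed symbols. In all 12 libraries, 88 tested genes shared their counts with another gene. Alternatives used edgeR 4.0.16, DESeq2 1.42.0, other scalings, pseudocounts, filters, samples, blocks and left-out libraries.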

Additional observations from a re-analysis of the deposited data

How the results depend on the processing

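Of 50 genes called, a pseudocount of 0.1 left 18 and one of 5 gave 64, no filter gave 29 and a filter of 10 CPM 26. Unscaled CPM gave 251 and quantile normalization 162, both holding all 50, and median centring 13. The 6 stroke libraries alone gave 93 (31 higher, 62 lower), edgeR 39 (6 and 33), DESeq2 171 (51 and 120), library quality weights 1247, a term for chemosensory receptor reads 139 (83 and 56) and the replicate block, the paired fit, 142 (88 and 54), or 541 on the 6 libraries alone. The block ended 3 calls (Wfdc17, Hbb-b2 and Hbb-bt) and no other of the 50. Single libraries left out gave 23 (day 3 replicate 2; 3 higher, 20 lower) to 120 (day 3 replicate 1; 105 higher, 15 lower) genes, 59 without day 30 replicate 1 (13 higher, 46 lower), and both replicate 1 libraries left out, an alternative added after seeing the data, 56 (48 and 8). The causes were not tested. No gene called changed its direction in any alternative. Of genes not called, these reversed with single libraries left out, ranging from -0.58 to 1.22 for Gzmb, -0.53 to 0.017 for Itgae (0.051 with quality weights), -1.29 to 0.17 for Klf2, -0.32 to 2.04 for P2ry12, -2.16 to 0.75 for Prf1 (0.45 by edgeR, 0.40 by DESeq2, 0.63 with quality weights), -0.16 to 1.82 for Rgs1 (-0.043 by edgeR) and -0.96 to 1.28 for Tmem119 (0.15 with median centring, 0.61 with quality weights, 0.48 without both replicate 1 libraries). With single libraries left out, list medians ran from -0.93 to 0.43 for B cells, -0.21 to 0.32 for the TGF-beta pathway (-0.33 unscaled), -0.91 to 0.28 for endothelial and mural cells, -2.93 to -1.53 for matrix genes (-1.20 without both replicate 1 libraries), -0.63 to 0.85 for heat shock genes, 0.67 to 1.48 for natural killer genes (1.73 with quantile normalization) and -0.74 to 0.36 for the oligodendrocyte lineage. The sex-linked list went from 0.30 to -0.071 unscaled and -0.069 without both replicate 1 libraries. Depth limits genes under about 1.61 CPM, the highest level that 3 reads reach in the 6 libraries (day 3 replicate 3).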
